A study of Mus musculus with 5 samples.

Results

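The genes described here encode the nuclear-encoded subunits of the 4 respiratory chain complexes and of ATP synthase, and the proteins of the mitochondrial ribosome. They were chosen by symbol from a poly(A) RNA-seq table of 49315 mouse genes, without pseudogenes and with at least 50 counts summed over the 5 libraries. The stems were Nduf with a, b, c, s or v and a digit, Sdha to Sdhd, Uqcr, Cyc1, Cox4 to Cox8, Atp5, Mrpl and Mrps. Ndufab1 does not match and is in a list of carriers below. The rule took 158 genes: 79 of the respiratory chain and ATP synthase, 77 of the mitochondrial ribosome, and 2 whose products belong to neither assembly, Atp5s and Mrps36. RNA came from lung endothelial cell isolates of mice in which TET2 was knocked out specifically in endothelium (TET2KO, 2 libraries) and of wild-type mice (WT, 3 libraries). TET2 is an enzyme of DNA demethylation. All 5 libraries came from animals infused with angiotensin II, a vasoconstrictor peptide, for 28 days, so what the infusion itself did cannot be read from them. The labels did not give the animals' age or strain, the Cre driver, the deleted exons, the way the cells were isolated, or whether a library was 1 animal.

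The respiratory chain passes electrons from NADH (complex I) and succinate (complex II) through ubiquinone to complex III, cytochrome c and complex IV, which reduces oxygen. Complexes I, III and IV pump protons, and ATP synthase (complex V) uses the gradient to make ATP. A few hydrophobic subunits are encoded in mitochondrial DNA and are made by the mitochondrial ribosome, whose proteins are all encoded in the nucleus and imported. Endothelial cells are known to make much of their ATP by glycolysis and to use mitochondria also for biosynthesis and signalling.

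Libraries held 31239463 and 30035235 counts in TET2KO and 27346804, 35440257 and 31005444 counts in WT. Tet2 itself had 4608 and 5188 counts in TET2KO libraries, against 4018, 5142 and 4130 counts in WT libraries. The edgeR log2 fold change of Tet2, TET2KO over WT, was 0.02 ± 0.19 (SE), with an adjusted p of 0.988. A deletion of some exons need not lower a count over the whole gene, so this count does not check the genotype. The labels placed WT replicate 3 with WT, but the authors' deposited comparison did not. Its log2 fold changes matched those of WT replicate 3 and both TET2KO libraries over WT replicates 1 and 2 within 0.01 for 99.98% of 18019 genes, and matched the labelled groups for 2.75%. The labels were followed here, and medians are given also without WT replicate 3, the library labelled WT whose place is in conflict.

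WT replicate 2 stood apart. Macrophage markers (9 of a list of 10 had a row in the table, and none was at 0 in any library) made up 0.522 and 0.980% in TET2KO libraries, against 1.03, 3.19 and 0.344% in WT libraries, as shares of all counts, and were highest in WT replicate 2 for 9 of 9. Markers of dividing cells made up 0.00979 and 0.0128% in TET2KO libraries, against 0.00935, 0.0198 and 0.00623% in WT libraries, again highest in WT replicate 2. Endothelial markers were present in every library, and 15 of 15 were higher in both TET2KO libraries than in every WT library (12.4% of all tested genes were), at 0.649 and 0.647% in TET2KO libraries, against 0.367, 0.225 and 0.468% in WT libraries. All 5 mesothelial markers were also higher in both TET2KO libraries than in every WT library, at 0.00286 and 0.00420% in TET2KO libraries, against 0.00136, 0.000714 and 0.000880% in WT libraries. B cell markers made up 0.325 and 0.206% in TET2KO libraries, against 0.372, 0.107 and 0.452% in WT libraries, lowest in WT replicate 2, and 6 of 6 T cell markers were lowest in that library. Markers of airway epithelium made up 0.0485 and 0.126% in TET2KO libraries, against 0.0309, 0.0471 and 0.0294% in WT libraries, highest in TET2KO replicate 2. In bulk RNA, fewer cells of a type and less RNA per cell cannot be told apart. The part of these markers in the results below was not tested.

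The promoters of these genes show what the groups share in sequence. RefSeq windows on build GRCm38.p6, from 250 bases before to 50 bases after a start site, were found for 133 of the 158 genes (144 windows). Exact matches were counted on both strands to the core of the NRF1 palindrome (CGCATGCG), the ETS core bound by the GABP factor (CCGGAAG) and the YY1 core (AAGATGGC). NRF1 and GABP are regulators long known at genes of the respiratory chain. The NRF1 core was in 11.1% of the windows of all the genes described here (13.04% for the chain and ATP synthase, 9.46% for the mitochondrial ribosome), against 3.26% of 15352 windows of all tested genes. For the ETS core the share was 29.2% (23.2% for the chain and 35.1% for the mitochondrial ribosome), against 15.3%. The YY1 core was in 14.6% (13.04% and 16.2%), against 3.87%. In 86 windows of cytosolic ribosomal protein genes the shares were 4.65% for the NRF1 core, 31.4% for the ETS core and 9.30% for the YY1 core, so the ETS share was no lower there than in the genes described here. Of all 32851 windows of the RefSeq table, 1.87%, 8.86% and 2.75% held the NRF1, ETS and YY1 core. The median number of CG dinucleotides per window was 20, against 18 for tested genes and 7 for the whole table. A match is a description of letters, not of binding.

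**Figure D1:**
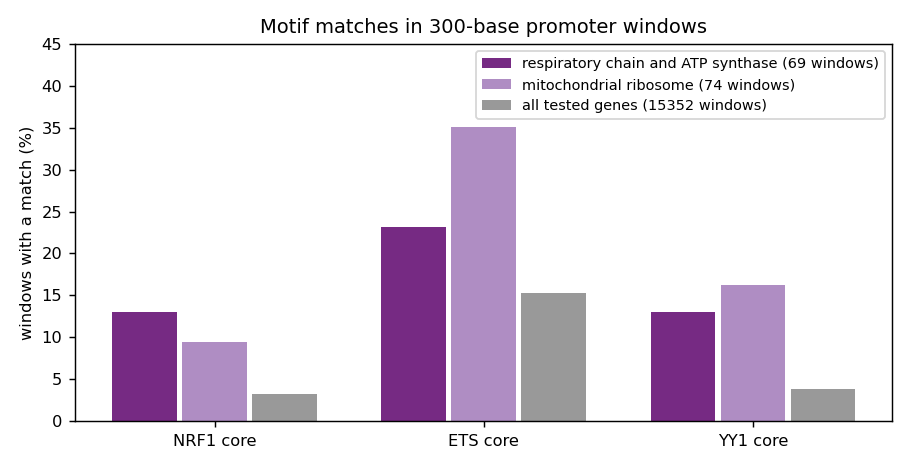
Share of 300-base promoter windows (vertical axis, percent) that hold an exact match to each of 3 motif cores, for the respiratory chain and ATP synthase, the mitochondrial ribosome and all tested genes. The ETS core was the most frequent of the 3 in each group, and the mitochondrial ribosome had it in 35.1% of windows.

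The next 5 windows were chosen after motifs and values were seen and run 5′ to 3′ on the strand of the gene, with matches in capitals. Atp5j (coupling factor 6 of ATP synthase; chr16:84834927-84835226, minus strand) holds all 3 cores in 1 of its 2 windows, which lies beside Gabpa, the gene on the opposite strand that encodes the GABP DNA-binding subunit. Uqcr11 (a small subunit of complex III; chr10:80406772-80407071, minus strand) holds an NRF1 and an ETS core. Mrpl43 (large mitochondrial ribosomal subunit; chr19:45006393-45006692, minus strand), the member with the smallest p, holds 2 ETS cores beside Twnk, the mitochondrial helicase gene on the opposite strand. Mrps27 (small subunit; chr13:99344536-99344835, plus strand) holds an ETS core and a YY1 core that begins 14 bases after the start site. Cox7a2l (supercomplex factor SCAF1; chr17:83514284-83514583, minus strand), chosen for its values given below, holds none of the 3. Lacking a core is common, since only 13.04%, 23.2% and 13.04% of chain windows held the NRF1, ETS and YY1 core. A link between cores and values was not tested.
Atp5j: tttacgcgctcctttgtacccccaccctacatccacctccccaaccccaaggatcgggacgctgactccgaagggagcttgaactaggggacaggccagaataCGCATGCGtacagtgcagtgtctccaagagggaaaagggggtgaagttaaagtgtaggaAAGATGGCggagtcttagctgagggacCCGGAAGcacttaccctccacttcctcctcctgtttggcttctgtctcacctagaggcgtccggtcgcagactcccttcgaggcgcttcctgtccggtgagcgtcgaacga
Uqcr11: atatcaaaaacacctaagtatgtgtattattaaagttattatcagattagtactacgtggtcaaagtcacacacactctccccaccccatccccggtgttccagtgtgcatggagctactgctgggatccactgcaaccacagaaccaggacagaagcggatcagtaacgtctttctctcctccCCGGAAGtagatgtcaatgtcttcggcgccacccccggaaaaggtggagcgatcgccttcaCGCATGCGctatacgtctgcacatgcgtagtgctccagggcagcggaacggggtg
Mrpl43: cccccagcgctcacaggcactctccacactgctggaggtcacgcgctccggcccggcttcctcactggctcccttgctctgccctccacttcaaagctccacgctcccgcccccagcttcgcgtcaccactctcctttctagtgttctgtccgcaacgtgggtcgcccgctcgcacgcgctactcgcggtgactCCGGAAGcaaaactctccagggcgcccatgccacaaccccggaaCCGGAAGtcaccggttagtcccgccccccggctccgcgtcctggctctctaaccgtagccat
Mrps27: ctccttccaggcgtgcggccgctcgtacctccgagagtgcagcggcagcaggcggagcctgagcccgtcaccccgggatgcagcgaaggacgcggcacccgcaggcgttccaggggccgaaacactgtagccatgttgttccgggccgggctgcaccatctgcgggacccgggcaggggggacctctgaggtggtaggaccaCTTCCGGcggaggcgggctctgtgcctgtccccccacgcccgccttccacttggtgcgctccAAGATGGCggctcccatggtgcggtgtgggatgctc
Cox7a2l: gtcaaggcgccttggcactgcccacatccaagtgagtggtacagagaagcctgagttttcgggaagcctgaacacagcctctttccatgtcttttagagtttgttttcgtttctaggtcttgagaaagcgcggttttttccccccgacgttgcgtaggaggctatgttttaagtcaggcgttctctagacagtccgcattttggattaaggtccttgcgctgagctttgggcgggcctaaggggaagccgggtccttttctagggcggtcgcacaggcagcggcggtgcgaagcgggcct

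Median transcript levels were higher in each class of the chain and ATP synthase than in either subunit of the mitochondrial ribosome. Levels between genes are compared as TPM, counts that the authors divided by gene length and set to a common total. Median TPM over members was 56.5 in TET2KO and 62.1 in WT for complex I, 91.2 and 106 for complex II, 94.1 and 108 for complex III, 88.8 and 102 for complex IV, and 81.9 and 96.9 for complex V. For the large mitochondrial ribosomal subunit it was 25.2 in TET2KO and 28.7 in WT, and for the small subunit 18.1 and 19.2. The highest mean was that of Atp5a1, the alpha subunit of ATP synthase, at 405 ± 12.97 TPM in TET2KO libraries (SD, n = 2) and 429 ± 2.63 TPM in WT libraries (SD, n = 3). The lowest was that of Cox6a2, the heart and muscle form of a complex IV subunit, at 3.53 ± 1.90 TPM in TET2KO libraries (SD, n = 2) and 2.16 ± 1.25 TPM in WT libraries (SD, n = 3). Summed over the 158 genes, TPM was 9412 and 9736 in TET2KO libraries, against 10040, 11333 and 10104 in WT libraries.

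**Figure D2:**
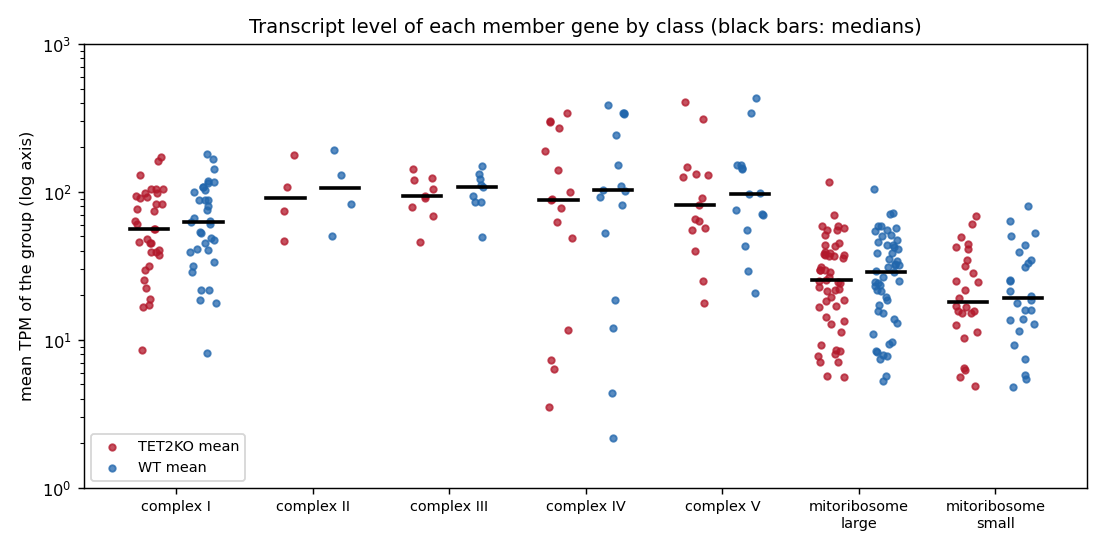
Mean TPM of each gene (log axis) by complex or ribosomal subunit, TET2KO means beside WT means, with black bars at the medians. Chain and ATP synthase classes had medians of 56.5 to 94.1 TPM in TET2KO, against 25.2 and 18.1 for the ribosomal subunits.

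No gene of either assembly passed the test between TET2KO and WT, and nearly all had a log2 fold change a little below 0, nearer to 0 without WT replicate 2. edgeR's quasi-likelihood test on counts called 0 of the 158 genes at an adjusted p under 0.05, and 0 of all 18727 tested genes (0%). At an unadjusted p under 0.05 by edgeR there was 1 of the 158, lower in TET2KO. Of all tested genes 1065 (5.69%) passed that mark in either direction, and 94 (0.502%) were lower. DESeq2 called 23 genes (0.142%), none of them among the 158, and limma-voom called 0. The log2 fold change was below 0 for 154 of the 158, against 58.4% of all tested genes and 4384 of 6360 of those of mean log2 CPM 3 to 6. It was also below 0 for 97 of 98 cytosolic ribosomal protein genes, 14 of 14 citric acid cycle genes and 23 of 24 mitochondrial import genes. The median log2 fold change was -0.36 for the chain and ATP synthase and -0.27 for the mitochondrial ribosome. It was -0.08 for all tested genes and -0.12 for those of mean log2 CPM 3 to 6. Without WT replicate 2 the medians were -0.09 and -0.12, against 0.00 for all tested genes, and 122 of 158 were below 0, against 49.3%. Without WT replicate 3 they were -0.43 and -0.26, against -0.01, and 152 of 158 were below 0. With library totals in place of TMM, 142 of 158 were below 0, where the median of all tested genes was 0.06. With limma on log2(TPM + 1), which changes test, unit and scaling together, 120 of 158 were below 0, where that median was 0.13. Of the 154 genes below 0 with all libraries, 123 were nearer to 0 by more than 1.5-fold, or above 0, without WT replicate 2, and 23 without WT replicate 3. By class, medians without WT replicate 3 were -0.42, -0.53, -0.37, -0.51 and -0.45 for complexes I to V, -0.31 for the large and -0.23 for the small ribosomal subunit.

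WT replicate 2 was on average the highest and TET2KO replicate 1 the lowest library in each of the 5 complexes. For each gene, the log2 CPM (counts scaled to a common total by TMM factors; prior count of 2) was set against its mean over the 5 libraries. The average deviation over the chain and ATP synthase genes was -0.22 and -0.17 in TET2KO libraries, against -0.08, 0.55 and -0.09 in WT libraries. For the mitochondrial ribosome it was -0.16 and -0.15 in TET2KO libraries, against -0.05, 0.34 and 0.02 in WT libraries. WT replicate 2 was the highest of the 5 libraries for 74 of 79 chain and ATP synthase genes and 57 of 77 ribosomal genes, and for 132 of all 158, against 35% of all tested genes and 47.3% of those of mean log2 CPM 3 to 6, the range that holds 132 of the 158. Both TET2KO libraries were below all 3 WT libraries for 37 of 79 and for 37 of 77, or 74 of all 158, against 12.4% of all tested genes and 16.3% of those of log2 CPM 3 to 6. They were above all 3 for 0 of 158, against 12.4% of all tested genes. With WT replicate 2 left aside, both TET2KO libraries were below WT replicates 1 and 3 for 76 of 158 (48.1%), against 24.2% of all tested genes. Cytosolic ribosomal protein genes had a larger share, 83 of 98 (84.7%).

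**Figure D3:**
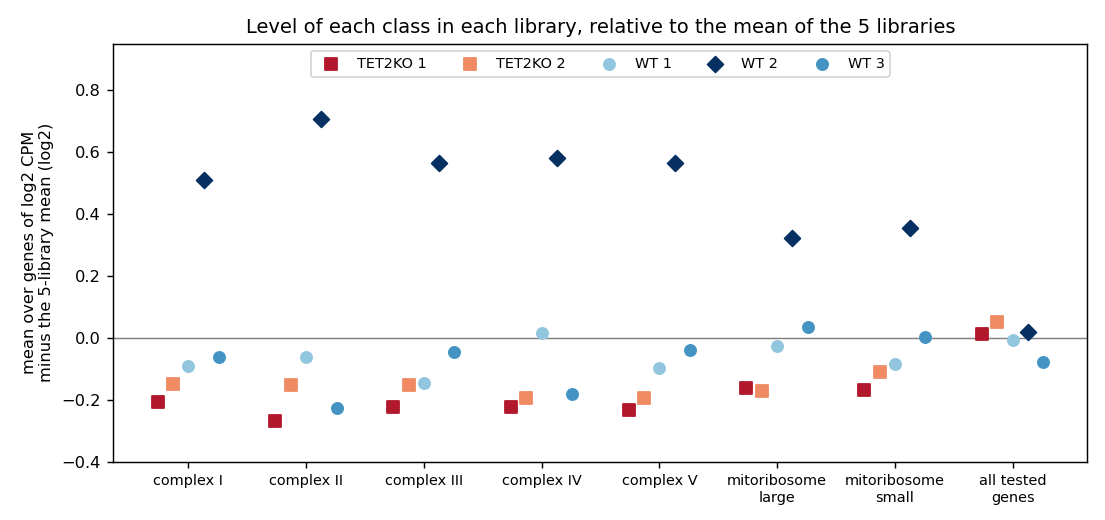
Average log2 CPM of each class in each library, relative to the mean of the 5 libraries (vertical axis, log2), with all tested genes at the right. WT replicate 2 was the highest library in each of the 7 classes, while for all tested genes it was at 0.02.

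As shares of all counts, chain and ATP synthase genes made up 0.365 and 0.381% in TET2KO libraries, against 0.403, 0.486 and 0.401% in WT libraries. The mitochondrial ribosome made up 0.128 and 0.128% in TET2KO libraries, against 0.135, 0.138 and 0.139% in WT libraries. On this scale, which uses library totals without TMM factors, WT replicate 2 was still the highest library for the chain, and WT replicate 3 was the highest for the mitochondrial ribosome. The TMM factor was 0.835 for WT replicate 2 and between 1.02 and 1.06 for the other libraries, so TMM scaling raised every gene of WT replicate 2 relative to the others.

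**Figure D4:**
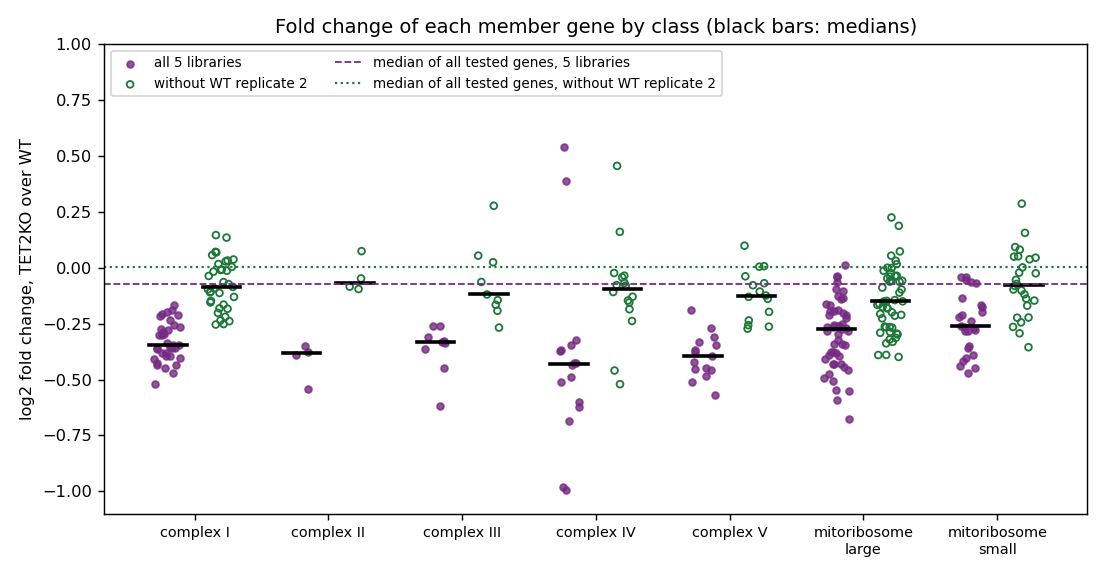
Log2 fold change of each gene, TET2KO over WT, by class, from all 5 libraries (filled) and without WT replicate 2 (open), with black bars at class medians and lines at the medians of all tested genes. Class medians were -0.26 to -0.43 with all libraries and -0.07 to -0.15 without WT replicate 2.

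Complex I, the NADH dehydrogenase, had 35 genes, all below 0, with a median of -0.35 (range -0.52 to -0.17). Both TET2KO libraries were below all WT libraries for 17 (48.6%, against 12.4% of all tested genes). Without WT replicate 2 the median was -0.09 and 25 of 35 were below 0. The 7 nuclear-encoded core subunits, which carry the flavin and the iron-sulphur clusters, had a median of -0.34, and the 28 accessory subunits had -0.36. Ndufs3, a core subunit of the peripheral arm, had 29.1 and 28.3 CPM in TET2KO libraries, against 33.2, 39.9 and 35.7 CPM in WT libraries. Both TET2KO libraries were below every WT library. Its log2 fold change was -0.34 ± 0.16 (SE), and -0.24 without WT replicate 2. Ndufs7 and Ndufs8, the iron-sulphur subunits that lead electrons to ubiquinone, had log2 fold changes of -0.30 ± 0.16 (SE) and -0.36 ± 0.24 (SE), and Ndufv2, the small cluster-bearing subunit of the NADH-oxidising module, had -0.34 ± 0.24 (SE). All 3 also had both TET2KO libraries below every WT library, and without WT replicate 2 they were at -0.20, -0.11 and -0.09.

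The core subunits Ndufv1 and Ndufs1 overlapped between groups. Ndufv1, the flavin-bearing subunit that binds NADH, had 57.5 and 57.5 CPM in TET2KO libraries, against 55.1, 81.9 and 59.8 CPM in WT libraries. Ndufs1, the largest iron-sulphur subunit, had 67.8 and 72.8 CPM in TET2KO libraries, against 69.7, 101 and 73.3 CPM in WT libraries. WT replicate 1 lay below both TET2KO values for Ndufv1 and between them for Ndufs1. With all libraries their log2 fold changes were -0.19 ± 0.22 (SE) and -0.21 ± 0.21 (SE), and without WT replicate 2 they were 0.03 and 0.00. Among accessory subunits, Ndufa6 had the highest mean TPM, at 173 ± 10.9 TPM in TET2KO libraries (SD, n = 2) and 179 ± 18.7 TPM in WT libraries (SD, n = 3). Ndufs5 and Ndufb6, both of the membrane arm, had the lowest log2 fold changes of the complex, -0.52 ± 0.40 (SE) and -0.47 ± 0.47 (SE). Ndufs5 had 9.73 and 11.5 CPM in TET2KO libraries, against 11.2, 23.4 and 10.99 CPM in WT libraries. Ndufb6 had 9.91 and 10.3 CPM in TET2KO libraries, against 10.1, 23.2 and 8.67 CPM in WT libraries. In both, WT replicate 2 was at about 2-fold the other libraries, which overlapped between groups, and without it the log2 fold changes were -0.04 and 0.13. Ndufb11, an accessory subunit encoded on chromosome X, was the only complex I gene not highest in WT replicate 2, with 41.7 and 39.2 CPM in TET2KO libraries, against 45.8, 44.4 and 52.2 CPM in WT libraries.

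Complex II, succinate dehydrogenase, has 4 subunits, all with a log2 fold change below 0 and a median of -0.38, which was -0.07 without WT replicate 2. Sdha, the flavoprotein that oxidises succinate, had 187 and 189.7 CPM in TET2KO libraries, against 207, 309 and 204 CPM in WT libraries, and both TET2KO libraries were below all WT libraries. Sdhb, the iron-sulphur subunit, had 45.6 and 45.9 CPM in TET2KO libraries, against 53.4, 80.7 and 45.6 CPM in WT libraries, with WT replicate 3 between the TET2KO values. The membrane anchors also overlapped between groups. Sdhc had 37.4 and 45.9 CPM in TET2KO libraries, against 41.9, 81.6 and 38.9 CPM in WT libraries. Sdhd had 34.4 and 38.2 CPM in TET2KO libraries, against 42.4, 81.8 and 34.3 CPM in WT libraries. Without WT replicate 2, log2 fold changes were -0.10 for Sdha, -0.08 for Sdhb, 0.07 for Sdhc and -0.05 for Sdhd.

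Complex III, the cytochrome c reductase, had 9 genes, all below 0 with a median of -0.33 (-0.12 without WT replicate 2). Both TET2KO libraries were below all WT libraries for 4 (44.4%, against 12.4% of all tested genes). Cyc1, which encodes the haem protein cytochrome c1, had 46.97 and 46.1 CPM in TET2KO libraries, against 49.1, 73.7 and 50.1 CPM in WT libraries, with a log2 fold change of -0.31 ± 0.23 (SE). Uqcrc2, a core protein of the matrix side, had 63.4 and 64.7 CPM in TET2KO libraries, against 70.99, 88.05 and 70.95 CPM in WT libraries, with a log2 fold change of -0.26 ± 0.17 (SE). For these 2 genes the TET2KO libraries were the lowest of the 5 by small margins, and without WT replicate 2 the log2 fold changes were -0.06 and -0.12. Uqcrb, the ubiquinone-binding subunit, instead had 28.03 and 31.4 CPM in TET2KO libraries, against 27.7, 56.6 and 22.4 CPM in WT libraries, with WT replicate 3 the lowest library. Its log2 fold change was -0.26 ± 0.42 (SE) with all libraries and 0.28 without WT replicate 2, and its reads may be shared with 3 distant near-identical transcripts. The small subunit Uqcr11 (promoter above) had 10.7 and 13.3 CPM in TET2KO libraries, against 12.2, 31.2 and 11.9 CPM in WT libraries, so that its log2 fold change of -0.62 ± 0.49 (SE) was 0.02 without WT replicate 2. Uqcr10, another small subunit, had a log2 fold change of -0.45 ± 0.31 (SE), and Uqcrh, the acidic hinge protein beside cytochrome c1, had -0.34 ± 0.20 (SE) and was highest in WT replicate 3. Without WT replicate 2 the values of Uqcr10 and Uqcrh were -0.145 and -0.27.

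Complex IV, cytochrome c oxidase, had 16 genes with a median of -0.43, which was -0.09 without WT replicate 2. Of these 14 were below 0, and 6 had both TET2KO libraries below all WT libraries (37.5%, against 12.4% of all tested genes). Subunit forms used in most tissues were at high levels. Cox8a had 345 and 335 TPM in TET2KO libraries, against 366, 419.8 and 378 TPM in WT libraries. Cox4i1 had 255 and 285 TPM in TET2KO libraries, against 307, 416 and 306 TPM in WT libraries. Cox6a1 had 276 and 320.0 TPM in TET2KO libraries, against 324, 381 and 312 TPM in WT libraries. On the TMM-scaled CPM the log2 fold changes of Cox8a, Cox4i1 and Cox6a1 were -0.43 ± 0.23 (SE), -0.60 ± 0.31 (SE) and -0.43 ± 0.26 (SE), and each had both TET2KO libraries below all WT libraries. Without WT replicate 2 the log2 fold changes were -0.19, -0.24 and -0.15. Cox5a, which sits on the matrix side of the enzyme, had 33.1 and 38.6 CPM in TET2KO libraries, against 41.3, 97.4 and 34.2 CPM in WT libraries, with WT replicate 2 at more than 2-fold every other library and the other 4 overlapping. Ndufa4, once placed in complex I and now in complex IV, had 31.9 and 34.7 CPM in TET2KO libraries, against 37.7, 69.2 and 33.6 CPM in WT libraries, and likewise overlapped. Cox6c and Cox7c, small subunits of the membrane part, had log2 fold changes of -0.35 ± 0.28 (SE) and -0.32 ± 0.20 (SE), or -0.04 and -0.16 without WT replicate 2.

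Tissue isoforms of complex IV were low, and their log2 fold changes lay on both sides of 0. Cox4i2, the form of subunit 4 known for its expression in lung and its induction by low oxygen, had 8.26 and 4.50 TPM in TET2KO libraries, against 6.53, 2.15 and 4.52 TPM in WT libraries. It was lowest in WT replicate 2, opposite to Cox4i1, and the log2 fold change was 0.39 ± 0.49 (SE), with a 95% interval from -0.84 to 1.61. Cox6a2 had only 83 counts over the 5 libraries, and its log2 fold change was 0.54 ± 0.58 (SE). Without TET2KO replicate 1 the log2 fold changes of Cox4i2 and Cox6a2 were -0.12 and -0.15. Cox6b2, known as a testis form, had 8.96 and 14.3 TPM in TET2KO libraries, against 18.1, 31.5 and 5.94 TPM in WT libraries. Cox7a1, the heart and muscle form of subunit 7a, had 5.36 and 9.18 TPM in TET2KO libraries, against 12.8, 15.97 and 7.47 TPM in WT libraries. Both were highest in WT replicate 2 and overlapped between groups, with log2 fold changes of -0.98 ± 0.79 (SE) and -0.99 ± 0.55 (SE). These were -0.08 and -0.52 without WT replicate 2, and without WT replicate 3 they were -1.40 and -1.26. Markers of heart and striated muscle (10 of 10 in the table, none at 0 in any library) made up 0.00286 and 0.00221% in TET2KO libraries, against 0.00217, 0.000909 and 0.00178% in WT libraries of all counts, lowest in WT replicate 2, and their part in these isoforms was not tested. Cox8b, with 21 counts, Ndufa4l2, with 42, and Cox7b2 and Cox8c, each listed with 0 counts, lay below the minimum of 50, and the members next above it were Cox6a2 and Cox4i2, with 184 counts.

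Cox7a2l encodes SCAF1, which joins complexes III and IV into a supercomplex and resembles subunit 7a. Cox7a2l had 96.9 and 91.2 CPM in TET2KO libraries, against 125, 101 and 139 CPM in WT libraries. On this TMM-scaled CPM both TET2KO libraries were below all WT libraries. WT replicate 2, the highest library for 13 of the 16 complex IV genes, was the third of the 5 here. On TPM, WT replicate 2 was instead the lowest of the 5 libraries for Cox7a2l, so the separation of the groups did not hold on that scale. The log2 fold change was -0.37 ± 0.19 (SE) with all libraries, -0.46 without WT replicate 2, where its p was the smallest of the 158 (unadjusted 0.0134, adjusted 0.429 by edgeR), and -0.23 without WT replicate 3, its highest library (unadjusted 0.280, adjusted 0.728 by edgeR). The subunit 7a form used outside muscle, Cox7a2, had 21.9 and 24.4 CPM in TET2KO libraries, against 23.3, 43.97 and 26.6 CPM in WT libraries, overlapping between groups and highest in WT replicate 2. In the authors' deposited comparison, which grouped WT replicate 3 with TET2KO, the log2 fold change of Cox7a2l was -0.03. A distant near-identical transcript may share reads with Cox7a2l.

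**Figure D5:**
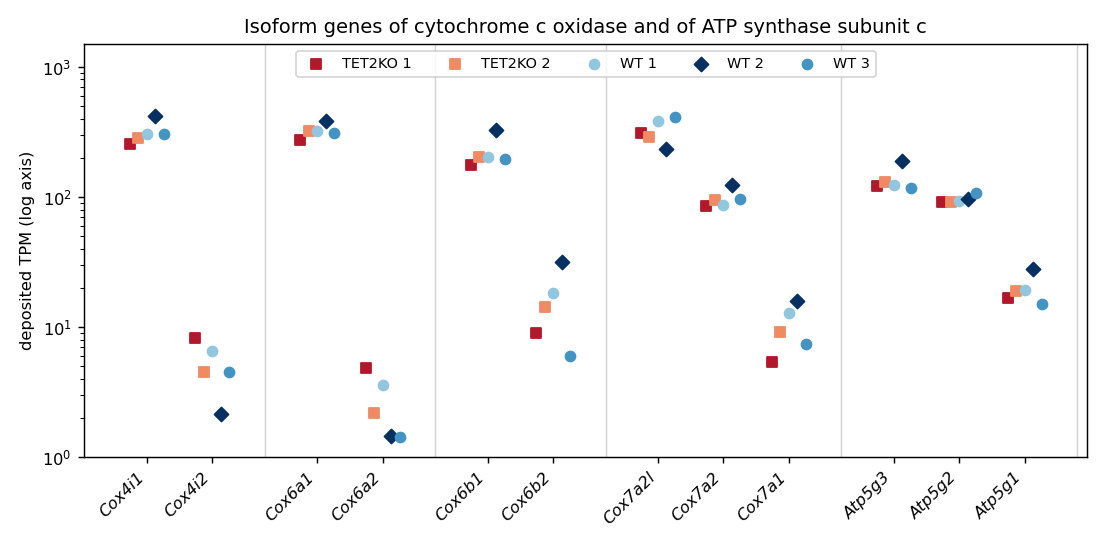
TPM (log axis) in each library for isoform genes of complex IV subunits 4, 6a, 6b and 7a and of ATP synthase subunit c, TET2KO libraries left of WT libraries. Cox7a2l and Cox4i2 were lowest in WT replicate 2 on this scale, and Cox4i1, Cox6a1, Cox6b1 and Atp5g3 were highest in it.

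ATP synthase had 15 genes, all below 0 with a median of -0.40 (-0.12 without WT replicate 2). Both TET2KO libraries were below all WT libraries for 9 (60%, against 12.4% of all tested genes). The catalytic beta subunit, Atp5b, had 349 and 373 CPM in TET2KO libraries, against 394, 591 and 411 CPM in WT libraries, with a log2 fold change of -0.37 ± 0.25 (SE), and Atp5a1, its alpha partner, had a log2 fold change of -0.31 ± 0.21 (SE). These were -0.13 and -0.14 without WT replicate 2. Of the central stalk, Atp5d (delta) had 70.1 and 70.00 CPM in TET2KO libraries, against 87.2, 109 and 85.4 CPM in WT libraries. Atp5e (epsilon) had 26.9 and 26.6 CPM in TET2KO libraries, against 29.8, 53.7 and 35.5 CPM in WT libraries. Both had TET2KO libraries close to each other and below all WT libraries. Atp5d was picked after values were seen. Its log2 fold change was -0.42 ± 0.17 (SE), and -0.27 without WT replicate 2. Exons of Atp5d overlap those of Cbarp on the other strand, and whether counting used the strand is not given in the sources used here.

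The rotor ring of ATP synthase is built from subunit c, which 3 genes encode with the same mature protein. Atp5g3 had 121 and 131 TPM in TET2KO libraries, against 124, 190.2 and 117 TPM in WT libraries. Atp5g2 had 90.9 and 90.9 TPM in TET2KO libraries, against 92.98, 96.6 and 107 TPM in WT libraries. Atp5g1 had 16.7 and 18.98 TPM in TET2KO libraries, against 19.3, 27.8 and 15.03 TPM in WT libraries. The order of levels was Atp5g3, Atp5g2, Atp5g1 in every library. On CPM, Atp5g3 and Atp5g1 were about 2-fold higher in WT replicate 2 than in the other libraries, with log2 fold changes of -0.46 and -0.48 that were 0.01 and 0.00 without that library. Atp5g2 had 41.7 and 41.7 CPM in TET2KO libraries, against 44.5, 61.4 and 52.8 CPM in WT libraries, with both TET2KO libraries below all WT libraries, and its log2 fold change was -0.34 ± 0.19 (SE), or -0.20 without WT replicate 2. Atp5j (promoter above) had 48.7 and 49.4 CPM in TET2KO libraries, against 47.6, 74.2 and 45.8 CPM in WT libraries, overlapping between groups. Its log2 fold change, the nearest to 0 in the complex, was -0.19 ± 0.26 (SE), and 0.10 without WT replicate 2. Atp5h, the peripheral stalk subunit d, had a log2 fold change of -0.27 ± 0.21 (SE), and Atp5k, the small subunit e, had -0.51 ± 0.39 (SE). Both overlapped between groups and were highest in WT replicate 2, without which they were at -0.07 and -0.04.

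The large subunit of the mitochondrial ribosome had 51 genes, of which 50 were below 0, with a median of -0.28 (-0.15 without WT replicate 2). Both TET2KO libraries were below all WT libraries for 27 (52.9%, against 12.4% of all tested genes). Mrpl43, picked after values were seen, was the only gene of the 158 with an unadjusted p under 0.05, where 94 of all tested genes (0.502%) were also lower. It had 19.7 and 19.4 CPM in TET2KO libraries, against 25.96, 31.2 and 26.2 CPM in WT libraries, with close values within TET2KO and no overlap. The log2 fold change was -0.51 ± 0.17 (SE), with a 95% interval from -0.94 to -0.08 (unadjusted p 0.0273, adjusted p 0.813 by edgeR), and -0.39 without WT replicate 2. Mrpl43 lies at chr19:45004829-45006442, minus strand of GRCm38 (ENSMUSG00000025208), and its exons overlap those of Twnk. Mrpl12, whose human form is known also to bind the mitochondrial RNA polymerase, had 14.6 and 16.8 CPM in TET2KO libraries, against 20.8, 31.9 and 18.3 CPM in WT libraries, with a log2 fold change of -0.59 ± 0.29 (SE). Mrpl45, which in mammals lies at the exit of the peptide tunnel by the inner membrane, had 14.8 and 15.5 CPM in TET2KO libraries, against 19.6, 27.9 and 19.1 CPM in WT libraries, with a log2 fold change of -0.55 ± 0.23 (SE), and was picked after values were seen. Both TET2KO libraries were below all WT libraries for these 2, and without WT replicate 2 their log2 fold changes were -0.29 and -0.32.

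Not all large subunit genes followed that pattern. Mrpl14 had the lowest log2 fold change of the subunit, -0.68 ± 0.45 (SE), from 5.53 and 7.36 CPM in TET2KO libraries, against 7.71, 16.3 and 6.89 CPM in WT libraries, where WT replicate 2 was at about 2-fold the rest and the groups overlapped. Without that library it was -0.15. Mrpl24 had the highest TPM of the subunit, at 117 ± 7.14 TPM in TET2KO libraries (SD, n = 2) and 105 ± 17.4 TPM in WT libraries (SD, n = 3). Its 5 libraries were close on CPM, with a log2 fold change of -0.04 ± 0.14 (SE) and a 95% interval from -0.40 to 0.32. Mrpl55 had a log2 fold change of 0.01 ± 0.23 (SE), with an interval from -0.57 to 0.59, and was the only large subunit gene above 0. Leaving out WT replicate 3 turned both signs round, to 0.03 for Mrpl24 and -0.02 for Mrpl55. Mrpl42, which a distant transcript resembles, had a log2 fold change of -0.26 ± 0.28 (SE), which was -0.00016 without WT replicate 2 and -0.41 without WT replicate 3.

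The small subunit had 26 genes, all below 0 with a median of -0.26 (-0.08 without WT replicate 2). Both TET2KO libraries were below all WT libraries for 10 (38.5%, against 12.4% of all tested genes). Mrps22 had 6.62 and 7.11 CPM in TET2KO libraries, against 8.06, 10.2 and 9.82 CPM in WT libraries, with a log2 fold change of -0.45 ± 0.22 (SE), which was -0.36 without WT replicate 2. Mrps16 had 8.91 and 9.87 CPM in TET2KO libraries, against 10.1, 11.7 and 12.6 CPM in WT libraries, with a log2 fold change of -0.28 ± 0.20 (SE), with WT replicate 3 rather than WT replicate 2 the highest. Both proteins are known from human disease, since mutations in either impair mitochondrial translation. Mrps21 had 13.2 and 14.7 CPM in TET2KO libraries, against 15.1, 27.4 and 15.4 CPM in WT libraries, with WT replicate 2 well above the rest and a log2 fold change of -0.47 ± 0.32 (SE), or -0.10 without it. Mrps27 (promoter above, also picked after values were seen), a protein of the pentatricopeptide repeat family, had 8.91 and 10.6 CPM in TET2KO libraries, against 10.7, 14.03 and 10.4 CPM in WT libraries. TET2KO replicate 2 was within the range of WT, and the log2 fold change was -0.26 ± 0.23 (SE), or -0.08 without WT replicate 2. Of the genes outside both assemblies, Atp5s had a log2 fold change of 0.14 ± 0.27 (SE) and Mrps36, whose product is now assigned to the 2-oxoglutarate dehydrogenase complex, had -0.34 ± 0.44 (SE), or 0.17 without WT replicate 2.

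Set against each other, chain and mitochondrial ribosome were farthest apart in WT replicate 2, and TET2KO did not stand apart from WT. The average deviation of the chain and ATP synthase genes minus that of the ribosomal genes was -0.06 and -0.02 on the log2 scale in TET2KO libraries, against -0.03, 0.22 and -0.11 in WT libraries. Both TET2KO values lay within the range of WT. The median log2 fold change was lower for the chain than for the ribosome with all libraries (-0.36 and -0.27), and this order turned round without WT replicate 2 (-0.09 and -0.12). Relative to the median of all tested genes, chain and ribosome medians ranged from -0.42 to -0.10 and from -0.28 to -0.12 over the alternatives in scaling, filter, tool, unit and libraries.

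Of the 13 subunits encoded in mitochondrial DNA, 12 were tested, with a median log2 fold change of -0.15 (-0.07 without WT replicate 2). None was called. Both TET2KO libraries were below all WT libraries for 5 (41.7%) and above them for 1, against 12.4% of all tested genes each way. Of these, 3 of high counts were picked after values were seen. The cytochrome b gene mt-Cytb had 1848 and 1739 CPM in TET2KO libraries, against 1910.2, 2176 and 1892 CPM in WT libraries. The complex I gene mt-Nd1 had 1299 and 1263 CPM in TET2KO libraries, against 1368, 1531 and 1408 CPM in WT libraries. The catalytic complex IV subunit mt-Co1 had 4594 and 4535 CPM in TET2KO libraries, against 4843, 5938 and 5065 CPM in WT libraries. All 3 were highest in WT replicate 2 on CPM and, on TPM, were lowest in it. Other transcripts of the same genome had few counts in these tables, such as mt-Co2 with 11 to 15 and mt-Atp6 with 12 to 22 per library, and 7 of the 13, with these and mt-Co1 among them, have a distant transcript near-identical over at least 200 bases. How reads with several matches were counted was not given, so levels of those genes are uncertain.

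Among other nuclear genes of mitochondria, none passed the test in any list. Genes of the citric acid cycle (14) had a median of -0.30 (-0.11 without WT replicate 2), and all 14 were highest in WT replicate 2. Both TET2KO libraries were below all WT libraries for 11 of them (78.6%, against 12.4% of all tested genes). Idh3g, the gamma subunit of the NAD-linked isocitrate dehydrogenase, had 75.8 and 75.05 CPM in TET2KO libraries, against 92.7, 112 and 91.4 CPM in WT libraries. Suclg1, a subunit of succinyl-CoA ligase, had 25.6 and 30.4 CPM in TET2KO libraries, against 34.2, 44.95 and 31.7 CPM in WT libraries. Neither overlapped between groups. Import genes (24) had a median of -0.33 (-0.094 without WT replicate 2), with both TET2KO libraries below all WT libraries for 10 (41.7%). Timm23, the channel of the inner membrane translocase, had 25.01 and 26.2 CPM in TET2KO libraries, against 30.9, 50.1 and 31.2 CPM in WT libraries. Tomm20, a receptor of the outer membrane, had 55.5 and 53.97 CPM in TET2KO libraries, against 64.1, 82.6 and 63.8 CPM in WT libraries. The list of carriers of electrons and of adenine nucleotides (21) also holds the Coq genes, Hccs, Slc25a3, the Vdac genes and Ndufab1. Its median was -0.31, and 0.04 without WT replicate 2. Both TET2KO libraries were below all WT libraries for 3 of the 21 (14.3%), near the 12.4% of all tested genes.

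With all libraries, medians of the assembly and expression factors were nearer to 0 than the -0.36 of the chain, but without WT replicate 2 they lay between -0.08 and -0.03, against -0.09. With all libraries, median log2 fold changes were -0.06 for complex I assembly factors (16 tested), -0.26 for complex IV assembly factors (20 of 22 tested) and -0.19 for those of complexes II, III and V (13). Mitochondrial translation factors and tRNA synthetases (28) had -0.09, and regulators of biogenesis and of mitochondrial DNA expression (17) had -0.08. These 5 medians were -0.04, -0.08, -0.08, -0.05 and -0.03 without WT replicate 2, in the same order. Without WT replicate 3 the 5 medians were -0.06, -0.27, -0.08, -0.09 and -0.03, again in that order. Tufm, the mitochondrial elongation factor Tu, had 32.05 and 32.8 CPM in TET2KO libraries, against 39.1, 56.04 and 38.6 CPM in WT libraries, with no overlap. The 5 mitochondrial ribosomal proteins under other names had -0.33 (-0.15 without WT replicate 2), among them Gadd45gip1 with 12.2 and 13.03 CPM in TET2KO libraries, against 16.05, 17.6 and 15.4 CPM in WT libraries. Genes of the cytosolic ribosome (98) had a median of -0.32, which was -0.42 without WT replicate 2 and -0.13 without WT replicate 3. Their average deviation in log2 CPM was -0.10 and -0.22 in TET2KO libraries, against 0.06, -0.07 and 0.33 in WT libraries, lowest in TET2KO replicate 2 and highest in WT replicate 3. WT replicate 2 was the highest library for 12 of the 98, against 57 of the 77 mitochondrial ribosomal genes. Both TET2KO libraries were below WT replicates 1 and 3 for 83 of the 98, against 39 of the 77.

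The authors' deposited table, which grouped WT replicate 3 with TET2KO, listed all 158 genes, 156 of them with an adjusted p and 0 under 0.05. None was in the authors' deposited table of 217 genes past their thresholds. In the authors' deposited table the median log2 fold change was -0.39 for the chain and ATP synthase and -0.20 for the mitochondrial ribosome, against 0.01 for all its genes, and 144 of 158 were below 0. The smallest adjusted p in the authors' deposited table was that of Cox6b2, at 0.0598 with a log2 fold change of -1.64.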

How the data were processed

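The submitters' processing notes name build GRCm38 and, as tools of the authors, DESeq2, STAR 2.5.2b, Trimmomatic 0.36 and featureCounts (Subread 1.5.2). The strand and multiple-match settings were not given in the sources used here. The authors deposited whole-number counts per gene, TPM values, and, per the file headers, a comparison with log2 fold changes, p-values and a normalized signal (counts divided by a size factor). Counts were tested with edgeR 4.0.16 in R 4.3.3 (quasi-likelihood F test, TMM scaling, filterByExpr, genotype as the only term), with Benjamini-Hochberg adjustment over 18727 genes and a threshold of 0.05. Standard errors were derived from the F statistics. The biological coefficient of variation was 0.339. Alternatives were DESeq2 1.42.0, limma-voom of limma 3.58.1, RLE scaling, library totals, other filters, limma on log2(TPM + 1) and log2(TPM + 0.1), each library left out, and the replicate number as a block.

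Genes and lists were chosen with earlier results of these data known. Genes named were those of highest TPM and most extreme log2 fold change in each class, core subunits, isoform sets and the 2 smallest p of each related list. Not all are printed, and others are said to be picked after values were seen. Ndufa4 was placed in complex IV, and Mrps30 and Mrps18a in the large ribosomal subunit. Coordinates and exon overlaps came from GENCODE on GRCm38: exons of 46 of the 158 genes overlap a gene on the opposite strand and of 13 a gene on the same strand, by at least 50 bases. For 31, a distant transcript was at least 97% identical over 200 bases or more. Median exon length was 1922 bases, against 3587 for tested genes. As the labels do not say that libraries were separate animals, p-values measure only how these libraries differ, which may be technical. Counting error is small beside it, except for genes of few counts such as Cox6a2.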

Additional observations from a re-analysis of the deposited data

How the results depend on the processing

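Of the 158 genes, 0 were called under every alternative run, DESeq2 (23 genes called among all tested) and a replicate block included. Replicate numbers were shared between TET2KO and WT by label only. The 2 pairs of same-numbered libraries had correlations of deviations of 0.22 and 0.49, but TET2KO replicate 1 with WT replicate 3, of another number, had 0.45. With only 2 TET2KO libraries, their correlations with a WT library differ only in sign (0.22 and -0.22 with WT replicate 1). These values therefore cannot show whether libraries were paired. With the replicate block, 0 genes were called, 17 of the 158 and 2914 of all genes had an unadjusted p under 0.05 by edgeR, and medians were -0.42 (chain and ATP synthase) and -0.28 (mitochondrial ribosome). WT replicate 3 was the only library of its number, so in that fit it did not inform the difference between TET2KO and WT.

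The chain median was between -0.47 and -0.09 when each library was left out in turn, and the ribosome median between -0.34 and -0.12. The most negative came without WT replicate 1 and those nearest 0 without WT replicate 2. With library totals in place of TMM the medians were -0.20 and -0.12, against 0.06 for all genes. On log2(TPM + 1) the ribosome median was -0.049 and on log2(TPM + 0.1) -0.051, where the median of all genes was 0.13 and 0.15. With a minimum of 500 counts they were -0.37 and -0.27.

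Of 66 named genes, 17 changed sign in some alternative; the cause was not tested. On log2(TPM + 1) and log2(TPM + 0.1) these were Atp5j (0.059 and 0.060), Mrpl24 (0.17 and 0.17), Ndufs1 (0.019 and 0.019), Ndufv1 (0.044 and 0.044), Uqcrb (0.068 and 0.069), mt-Nd1 (0.049 and 0.049), mt-Cytb (0.062 and 0.062) and mt-Co1 (0.00727 and 0.00727). Mrpl24 was 0.10 with library totals, 0.00627 without a filter and 0.00141 with the replicate block, where Mrpl55 was -0.031. With each library left out in turn, lowest and highest log2 fold changes were Mrpl55 (-0.0693 to 0.19), Atp5g1 (-0.69 to 0.00443), Atp5g3 (-0.63 to 0.00676), Atp5j (-0.29 to 0.0984), Ndufb6 (-0.70 to 0.13), Ndufs1 (-0.31 to 0.00346), Ndufv1 (-0.30 to 0.0282), Sdhc (-0.54 to 0.0739), Uqcr11 (-0.84 to 0.0242), Uqcrb (-0.48 to 0.28), Mrps36 (-0.57 to 0.17), Mrpl24 (-0.10 to 0.0331), Cox4i2 (-0.12 to 0.76) and Cox6a2 (-0.15 to 1.00).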
